A study of Saccharomyces cerevisiae with 8 samples.

Results

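The respiratory set comprised the mutants of the yeast mitochondrial respiratory chain and of the ATP synthase in a pooled screen for sensitivity or resistance to selenomethionine (SeMet), an analogue of methionine that carries selenium in the place of sulfur. Members were all gene names made of ATP, COX, QCR or SDH and a number, with or without A or B, together with COR1, CYT1, RIP1, CYC1 and CYC7. This rule uses names and no measured value, and it took 50 of the 5100 gene names on the arrays. The 50 genes lie on 14 chromosomes, with at most 8 on any of them. A value was recorded on at least 1 array for 42 of them. ATP2, ATP3, ATP15, ATP16, ATP22, ATP25, SDH4 and COX10 were listed without a value on any array, and nothing is said about these 8 strains below.

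The pool consisted of barcoded haploid mutants derived from BY4741, a laboratory strain that lacks MET17 and therefore cannot assimilate inorganic sulfur. It mixed deletion strains with DAmP strains, in which an essential gene is kept but its mRNA is destabilised, and the names do not tell these kinds apart. Probes of a gene were averaged, and for the 15 members listed with 4 probes rather than 2 this average may mix barcodes of more than a single strain. A dose of 20 µM SeMet is represented by 3 arrays and one of 12 µM by 2 arrays, each of which sets the treated culture against an untreated culture. Another 3 arrays set untreated cells at harvest against the starting cells (time zero). All pools grew in synthetic complete glucose medium with added methionine and cysteine, and the labels give 16 h for the growth arrays.

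The value of a strain is the log2 ratio of its barcode between both pools of an array. The relative fitness score is the ratio of treated to untreated cells, and a negative value means that the mutant became rarer with SeMet than without it. The growth score is the ratio of untreated cells to those of time zero, and a negative value means that the mutant became rarer in the pool during growth without SeMet. The grown or treated pool always carried Cy3, so that dye and pool cannot be told apart. The untreated pool is the denominator of the fitness scores and the numerator of the growth score, and for this reason scores of different comparisons are set side by side without a correlation.

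Each array held a value for 4353 to 4722 strains, among them 37 to 42 members. The SD of the scores over all strains was 0.80, 0.78 and 1.11 on the arrays with 20 µM SeMet, 0.42 and 0.53 on those with 12 µM, and 0.90, 0.76 and 0.82 on the growth arrays. The third experiment at 20 µM had the widest spread of the 8 arrays.

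In yeast mitochondria, succinate dehydrogenase (complex II) and other dehydrogenases pass electrons through coenzyme Q to the cytochrome bc1 complex (complex III). Cytochrome c carries them on to cytochrome c oxidase (complex IV), which reduces oxygen, and the ATP synthase uses the resulting proton gradient to make ATP. Yeast ferments glucose and can live without respiration, so that mutants in most of these genes are viable but cannot use non-fermentable carbon sources. Mutants in several ATP synthase genes are known to lose their mitochondrial DNA often. Cytochrome b of complex III, the catalytic subunits of complex IV and part of the ATP synthase are encoded in that DNA and are not in the collection.

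With 20 µM SeMet, complex IV and ATP synthase mutants stood on opposite sides of 0. The median relative fitness score was −0.55 over the 16 complex IV strains tested and 0.55 over the 10 ATP synthase strains, against −0.09 over all 4536 strains tested. In complex IV, 15 of 16 means were below 0, whereas 2 of 10 were in the ATP synthase. Over all strains, 2710 of 4536 means were below 0. Complex III lay between them with a median of −0.04 over 9 strains. The cytochrome c genes had a median of −0.61 over 2 strains. Complex II had −0.38 over 3 strains, 1 of them above 0, and −0.16 without experiment 3. With strains of at least 2 probes only SDH3 remained (0.11), so that this setting cannot test the direction of the complex. The direction of complex II is not settled.

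**Figure D1:**
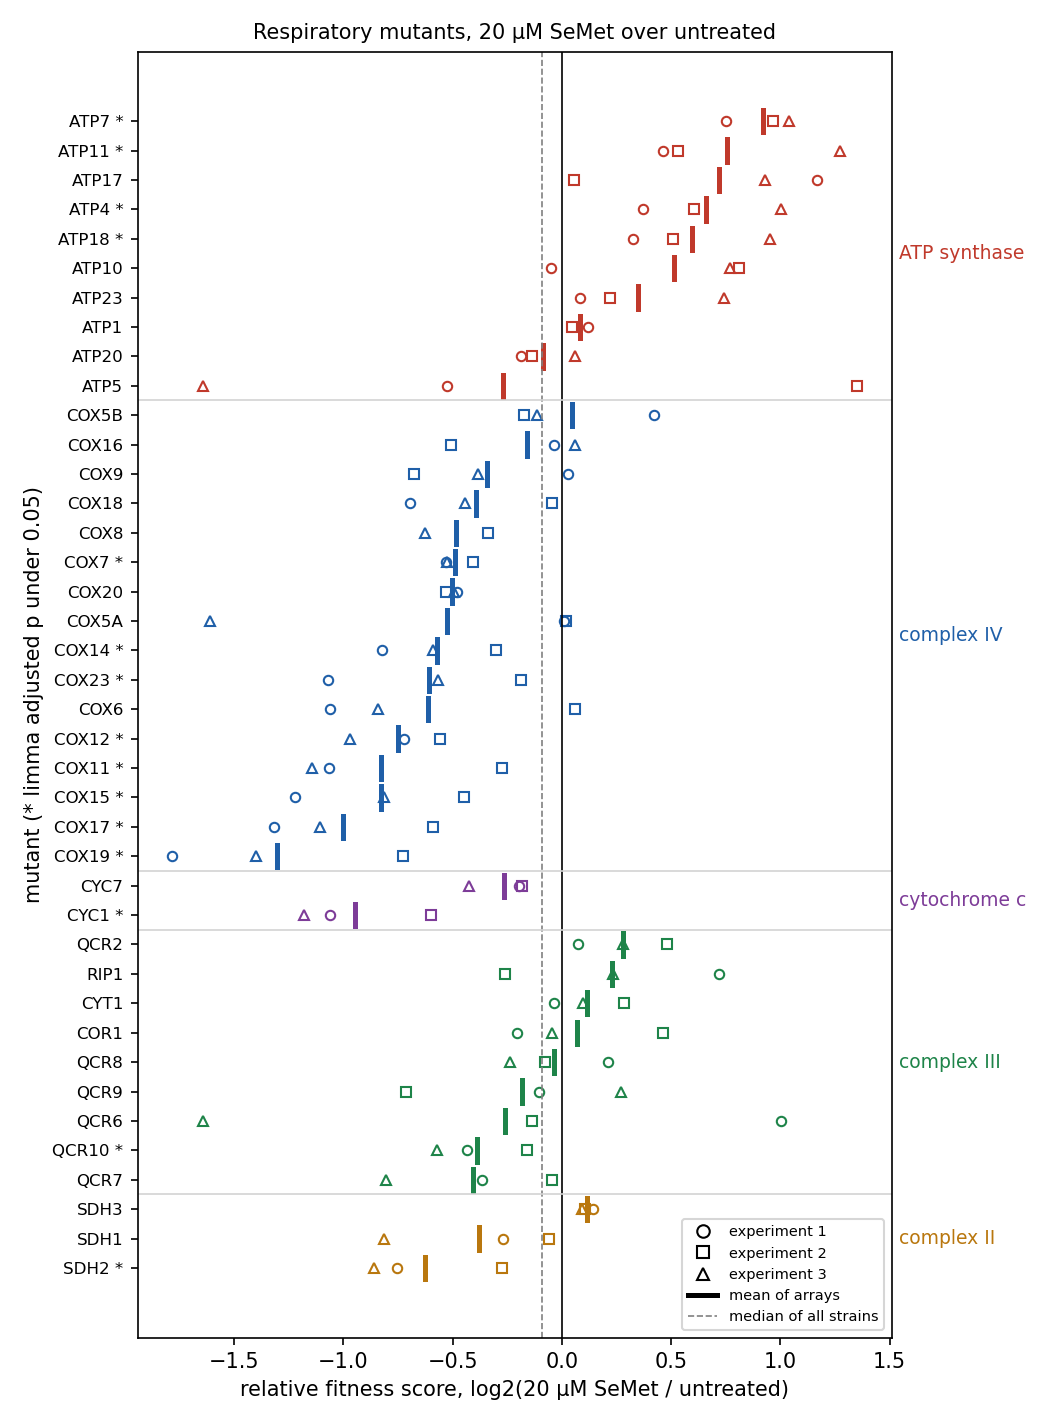
Relative fitness scores of the 40 respiratory strains with a value on at least 2 of the 3 arrays with 20 µM SeMet (x axis, log2 of 20 µM SeMet over untreated; symbols are experiments, bars are means, the dashed line is the median of all strains, stars mark a limma adjusted p under 0.05). All but 1 of the complex IV means lie left of 0, and 8 of the 10 ATP synthase means lie right of it.

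The separation of complex IV and the ATP synthase was present on each array. The median over complex IV strains was −0.72, −0.37 and −0.61 in experiments 1, 2 and 3, against 0.22, 0.52 and 0.93 over ATP synthase strains. Over all strains the array medians were −0.04, −0.06 and −0.15. The medians of complex III were −0.03, −0.08 and −0.05 and stayed close to those of all strains.

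By the moderated test of limma with Benjamini-Hochberg adjustment over all strains, 11 of 40 respiratory strains were lower with 20 µM SeMet, beside 13.8% of all strains tested. They were 8 complex IV strains, CYC1, QCR10 and SDH2. A further 4 strains were higher, beside 12.5% of all strains tested, and all 4 belong to the ATP synthase (ATP4, ATP7, ATP11 and ATP18). No member passed a mean of −1.5 or 1.5, which 139 and 242 of the 4536 strains did. The calls rest strongly on single arrays. Without experiment 1, 2 or 3, the lower calls numbered 4, 10 and 3 and the higher calls 5, 0 and 0. The calls of COX12, COX19 and CYC1 remained without each of the 3 arrays in turn. After centring of each array on its median, 5 members were lower and 4 higher.

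Among the complex IV strains, the lowest scores belonged to mutants in assembly factors rather than in subunits of the finished enzyme. COX19 (YLL018C-A) encodes a small intermembrane space protein with twin CX9C motifs that takes part in copper handling, and its mutant had the lowest mean of all members. Its scores were −1.78, −0.73 and −1.40 in experiments 1 to 3 (mean −1.30 ± 0.53, SD, n = 3, limma adjusted p = 0.00287). The score of experiment 3 averaged a probe that read −0.88 with another that had a 20 µM value on that array alone (−1.91). COX17 (YLL009C), the copper chaperone of the intermembrane space, had −1.32, −0.59 and −1.11 (mean −1.004 ± 0.38, adjusted p = 0.04). All arrays of both mutants lay below 0, and experiment 2 gave the weakest score in each.

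COX11 (YPL132W) delivers copper to the active site in the Cox1 subunit, and COX15 (YER141W) encodes heme A synthase. The COX11 mutant had −1.06, −0.27 and −1.15 (mean −0.83 ± 0.48, adjusted p = 0.015). Its score in experiment 3 likewise averaged a probe that read −0.75 with another that had a 20 µM value on that array alone (−1.54). The COX15 mutant had −1.22, −0.45 and −0.81 (mean −0.83 ± 0.39, adjusted p = 0.0359). COX23, another twin CX9C protein related to COX17, and COX14, a regulator of Cox1 synthesis and assembly, were also lower, with means of −0.61 ± 0.44 and −0.57 ± 0.26 (adjusted p = 0.0275 and 0.0342). Thus 6 of 9 assembly factor mutants were called lower and all 9 means were below 0, with a median of −0.61. Of the 3 that were not called, COX18 and COX20 act on the insertion and maturation of Cox2. COX20 had a mean of −0.50 ± 0.03 (adjusted p = 0.053), but its 4 probes formed opposed pairs. In experiment 1 a pair read −0.82 and −0.99 and the other −0.08 and −0.03, whereas in experiment 2 they read −0.16 and −0.41 against −0.88 and −0.66, so that the small SD is that of an average over unlike probes. COX16 had the highest mean of the assembly factors, with −0.04, −0.51 and 0.06 (mean −0.16 ± 0.30, adjusted p = 0.522).

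Of the 7 structural subunits of complex IV with scores, 2 were called lower and 6 means were below 0, with a median of −0.49. COX12 (YLR038C), a peripheral subunit on the intermembrane space side, had the lowest mean of the subunits. Its scores were −0.72, −0.56 and −0.97 (mean −0.75 ± 0.21, adjusted p = 0.00393). COX7 (YMR256C) had −0.53, −0.41 and −0.53 (mean −0.49 ± 0.07, adjusted p = 0.0125). All arrays of both mutants lay below 0. A single probe gave the COX7 scores. The spread was wider in COX12, whose probes read −1.14, −0.37 and −1.30 and −0.31, −0.75 and −0.64. COX6, COX8 and COX9 had means of −0.61, −0.48 and −0.34 that did not pass the test (adjusted p = 0.335, 0.224 and 0.108).

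COX5A and COX5B encode alternative forms of the same subunit, of which COX5A is the main form in air and COX5B is made mainly when oxygen is low. The COX5A mutant had 0.01, 0.02 and −1.61 (mean −0.53 ± 0.94, adjusted p = 0.222), so that its low mean came from experiment 3 alone. The COX5B mutant had 0.42, −0.18 and −0.11 (mean 0.04 ± 0.33, adjusted p = 0.887), the highest mean of complex IV. The ranges of the isoforms overlapped.

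The cytochrome c genes form a similar pair. CYC1 (YJR048W) encodes the major isoform made in air and CYC7 (YEL039C) the minor isoform of low oxygen. The CYC1 mutant had −1.06, −0.60 and −1.18 (mean −0.95 ± 0.31, adjusted p = 0.00265). The CYC7 mutant had −0.19, −0.18 and −0.42 (mean −0.27 ± 0.14, adjusted p = 0.178). Every CYC1 array lay below every CYC7 array. The difference between the isoforms was not tested.

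In complex III, 1 of 9 strains was called lower at 20 µM SeMet (11.1%) and 0 higher, beside 13.8% and 12.5% of all strains. QCR10 (YHR001W-A), a small peripheral subunit, had −0.43, −0.16 and −0.57 (mean −0.39 ± 0.21, adjusted p = 0.0481). The lowest mean belonged to QCR7 (YDR529C), a subunit near the matrix face, with −0.37, −0.05 and −0.81 (mean −0.41 ± 0.38, adjusted p = 0.209). The highest belonged to QCR2 (YPR191W), a core subunit, with 0.08, 0.48 and 0.28 (mean 0.28 ± 0.20, adjusted p = 0.124). The other core subunit COR1, cytochrome c1 (CYT1) and the Rieske iron-sulfur protein (RIP1) had means of 0.07, 0.12 and 0.23 and were not called. The means of complex III strains thus spread around 0 within a narrower range than those of complex IV. This does not hold for single arrays. QCR6, singled out after its values were seen, had 1.00, −0.14 and −1.64 (mean −0.26 ± 1.33, adjusted p = 0.748), with probe means of −0.73 and 1.14.

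In complex II, SDH2 (YLL041C), the iron-sulfur subunit, had −0.75, −0.27 and −0.86 (mean −0.63 ± 0.31, adjusted p = 0.0442). SDH3 (YKL141W), a membrane anchor that binds heme, had 0.14, 0.10 and 0.09 (mean 0.11 ± 0.03, adjusted p = 0.534). The flavoprotein subunit mutant SDH1 lay between them with a mean of −0.38 ± 0.39 (adjusted p = 0.108). The scores of SDH2 and SDH3 did not overlap.

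The ATP synthase consists of a catalytic F1 head, a stalk and a membrane part, and needs dedicated factors for its assembly. Of the stalk and membrane subunits, 3 of 6 were called higher. ATP7 (YKL016C), subunit d of the peripheral stalk, had the highest mean of all members, with 0.75, 0.97 and 1.04 (mean 0.92 ± 0.15, adjusted p = 0.017). ATP4 (YPL078C), subunit b of the same stalk, had 0.37, 0.61 and 1.00 (mean 0.66 ± 0.32, adjusted p = 0.0196). ATP18 (YML081C-A), a small subunit of the membrane part, had 0.33, 0.51 and 0.95 (mean 0.60 ± 0.32, adjusted p = 0.0347). In each of these 3 mutants all arrays lay above 0 and experiment 3 was the highest.

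ATP11 (YNL315C), a chaperone of the F1 head, had 0.46, 0.53 and 1.27 (mean 0.76 ± 0.45, adjusted p = 0.0273). ATP23 (YNR020C), the protease that matures Atp6, had the lowest mean of the assembly factors, with 0.08, 0.22 and 0.74 (mean 0.35 ± 0.35, adjusted p = 0.264). ATP10, which assists Atp6 assembly, had a mean of 0.51 ± 0.48 (adjusted p = 0.0724). All 3 means of the assembly factors were above 0, and 1 of them was called.

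The remaining ATP synthase strains gave no call at 20 µM. ATP17, singled out after its values were seen, had 1.17, 0.06 and 0.93 (mean 0.72 ± 0.59, adjusted p = 0.147). This mean lay above those of the called ATP4 and ATP18. In experiment 1 a pair of ATP17 probes read 1.81 and 2.07 and the others 0.46 and 0.33. ATP1 (YBL099W), the alpha subunit and the single F1 subunit with values, had 0.12 and 0.05 on 2 arrays (mean 0.08 ± 0.05, n = 2, adjusted p = 0.732), and its probe means lay between −0.29 and 0.47. ATP20, subunit g, which takes part in dimer formation, had a mean of −0.09 ± 0.13. ATP5 (YDR298C), the subunit at the top of the stalk, had the lowest mean, with −0.52, 1.35 and −1.64 (mean −0.27 ± 1.51, adjusted p = 0.753). ATP5 thus had no reproducible direction. Its 4 probes also disagreed, and in experiment 1 a pair read 0.17 and 0.10 and the other −1.17 and −1.20.

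**Figure D2:**
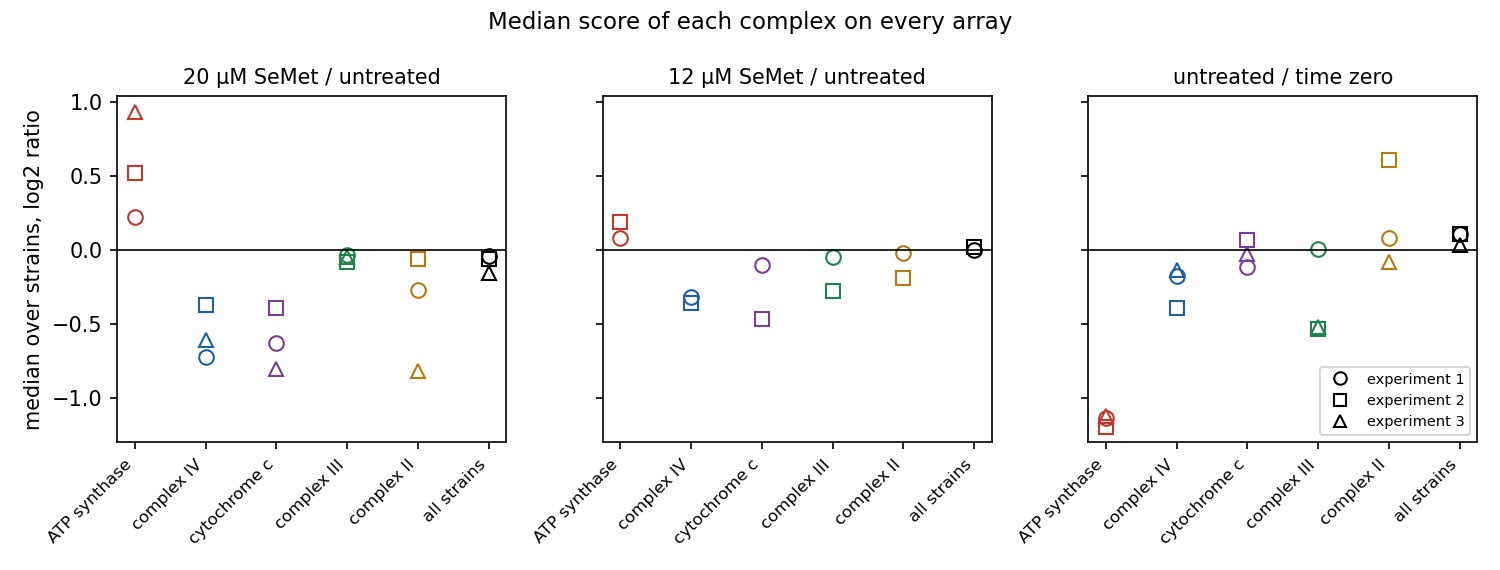
Median score of each complex on every array (y axis, log2 ratio; symbols are experiments) for 20 µM SeMet over untreated, 12 µM SeMet over untreated and growth without SeMet over time zero. With 20 µM SeMet the ATP synthase medians of 0.22, 0.52 and 0.93 lie above the complex IV medians of −0.72, −0.37 and −0.61 on all 3 arrays, and in growth the ATP synthase has the lowest medians.

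With 12 µM SeMet no member was called. Of 37 strains tested, 0 were lower and 0 were higher by limma at an adjusted p under 0.05, beside 0.87% and 0.137% of all 4368 strains tested. At an unadjusted p under 0.05, 4 members were lower and 0 higher. The 2 arrays of this dose limit the test, and 3 members were called lower after the arrays were scaled to the same spread.

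The complex IV strains lay below 0 at this dose as well. All 15 complex IV means were below 0, against 2180 of 4368 over all strains, with a median of −0.29 against 0.00. The ATP synthase had a median of 0.03 over 8 strains, 3 of them below 0. The lowest means were those of COX17, with −0.75 and −1.81 (mean −1.28 ± 0.75, n = 2, adjusted p = 0.193), and of COX16, with −0.53 and −1.21 (mean −0.87 ± 0.48, n = 2, adjusted p = 0.123). COX19 and COX12 had −0.69 and −0.43 (mean −0.56) and −0.40 and −0.61 (mean −0.50). CYC1 had −0.20 and −0.59, and CYC7 had 0.00 and −0.34. Complex III had a median of −0.15 and complex II of −0.11.

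The doses themselves were compared in the same fit for 37 members. The difference of 20 µM minus 12 µM passed the test in 0 members, as in 0% of all 4364 strains tested, while at an unadjusted p under 0.05 it was lower in 1 and higher in 3 members. In complex IV, 12 of 15 differences were below 0, with a median of −0.25. In the ATP synthase, 7 of 8 differences were above 0, with a median of 0.52. Over all strains, 2657 of 4364 were below 0 and the median was −0.09. The largest difference was that of ATP7, with a mean of 0.92 at 20 µM and −0.29 at 12 µM (difference 1.20 ± 0.35, SE, adjusted p = 0.176). CYC1 had −0.95 at 20 µM and −0.39 at 12 µM (difference −0.55 ± 0.24, SE, adjusted p = 0.383). Both doses were measured against untreated pools, and arrays of the same experiment may share that pool.

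**Figure D3:**
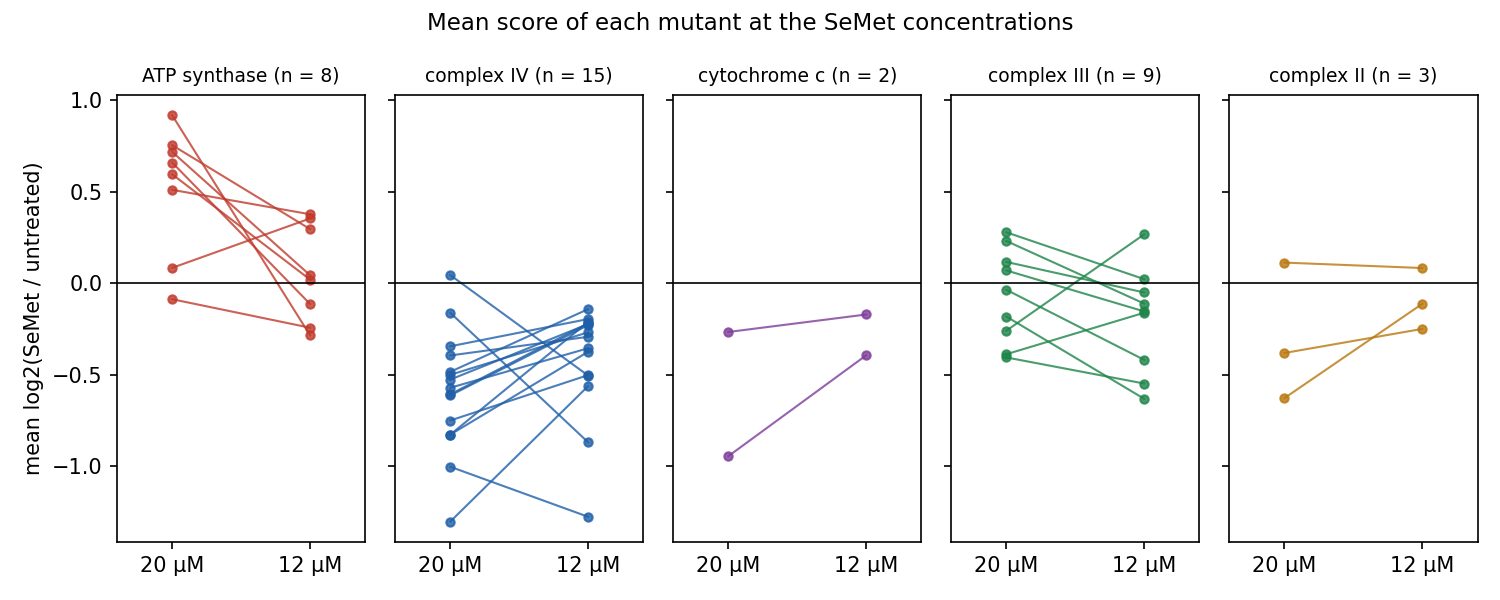
Mean relative fitness scores (y axis, log2 of SeMet over untreated) of the 37 respiratory strains with scores at 20 µM (left of each panel, 3 arrays) and 12 µM SeMet (right, 2 arrays), each line being a strain. The ATP synthase strains spread up to 0.92 at 20 µM and lie between −0.29 and 0.38 at 12 µM, and all 15 complex IV strains lie below 0 at 12 µM.

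During growth without SeMet, the order of the complexes was different. ATP synthase mutants had the lowest median growth score, −1.14 over 12 strains, against 0.08 over all 4628 strains tested. The medians on the 3 growth arrays were −1.13, −1.19 and −1.12, against 0.11, 0.11 and 0.04 over all strains. Complex III had a median of −0.37 over 9 strains, which was −0.61 without growth experiment 1 and −0.22 without experiment 3. Complex IV had −0.25 over 16 strains, which turned to 0.0045 without experiment 2. Complex II had 0.08 over 3 strains, which was −0.06 without experiment 2 and 0.26 without experiment 1, and the cytochrome c genes had −0.02 over 2 strains. The order of these complexes behind the ATP synthase is therefore not settled.

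By limma, 17 of 42 members were lower after growth, beside 12.7% of all strains tested, and 2 were higher, beside 14.2%. The lower strains were 9 of 12 in the ATP synthase, 5 of 16 in complex IV and 3 of 9 in complex III. A mean below −1.5 was found in 5 members, all in the ATP synthase, and in 249 of the 4628 strains. Without growth experiment 1, 2 or 3, there were 11, 6 and 12 lower calls among members, and 5, 5 and 6 in the ATP synthase.

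**Figure D4:**
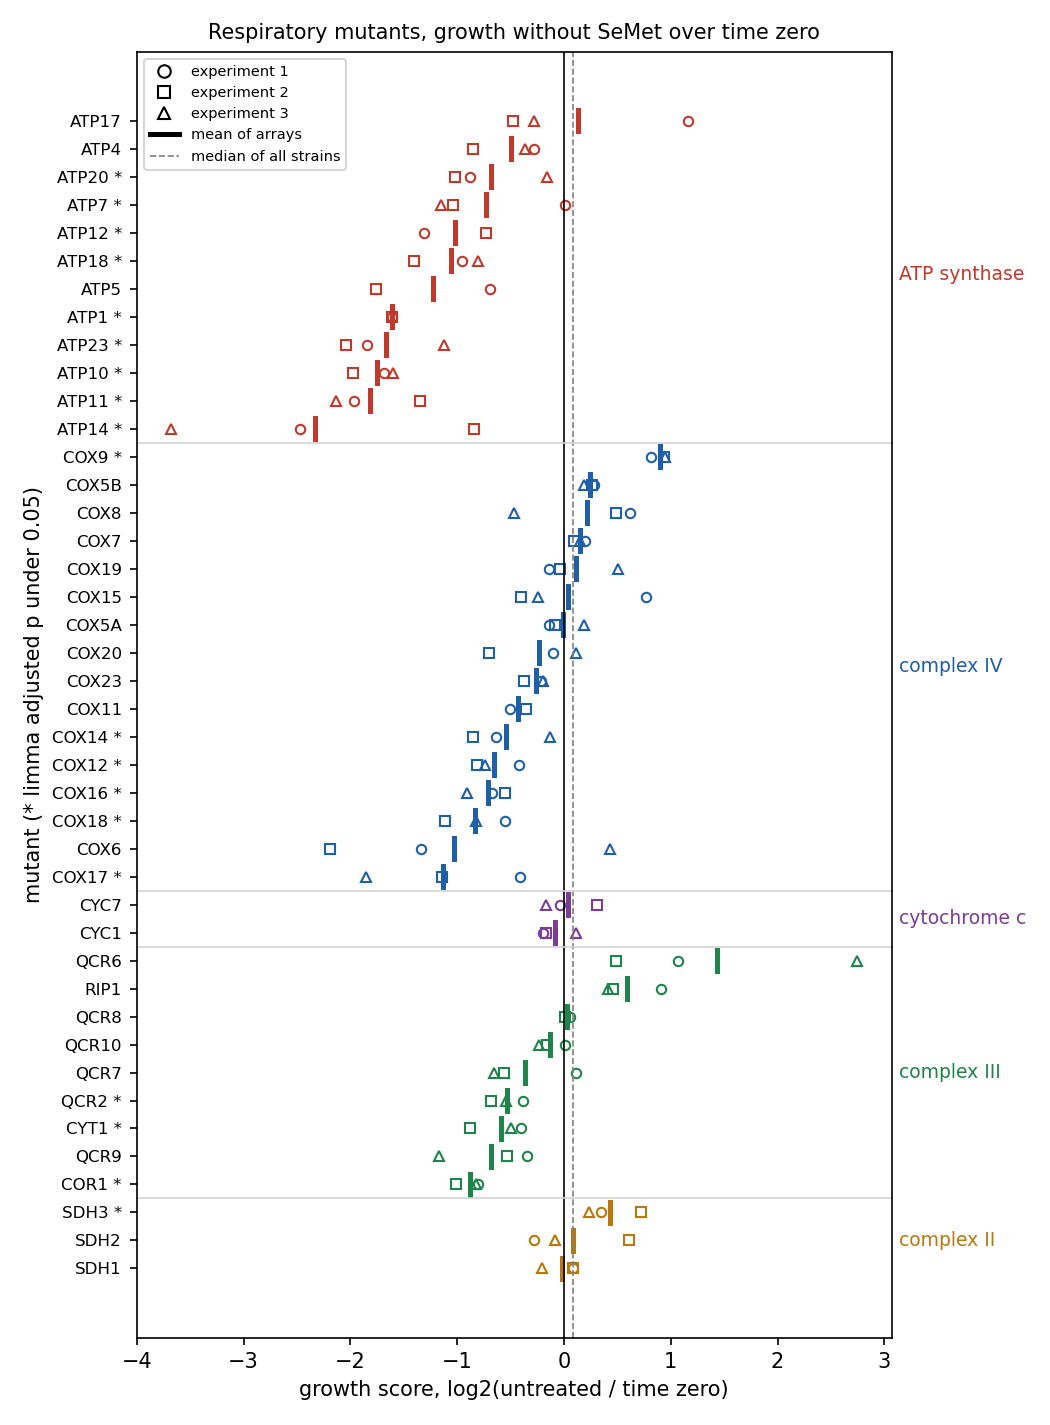
Growth scores of the 42 respiratory strains with a value on at least 2 of the 3 growth arrays (x axis, log2 of untreated over time zero; symbols are experiments, bars are means, the dashed line is the median of all strains, stars mark a limma adjusted p under 0.05). All ATP synthase means except that of ATP17 lie left of 0, down to −2.33 for ATP14.

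The mutants in ATP synthase assembly factors were all called lower, with a median of −1.71 over 4 strains. ATP11 had growth scores of −1.96, −1.35 and −2.14 (mean −1.82 ± 0.42, adjusted p = 0.00137). ATP10 (YLR393W) had −1.68, −1.97 and −1.60 (mean −1.75 ± 0.19, adjusted p = 0.000994). ATP23 had −1.85, −2.04 and −1.12 (mean −1.67 ± 0.48, adjusted p = 0.00275). No array score of these 3 mutants lay above −1.12, but scores of experiment 3 averaged unlike probes. These read −0.94 and −2.27 in ATP10 and −0.83 and −1.41 in ATP23. ATP12 (YJL180C), the chaperone of the alpha subunit, was measured on 2 growth arrays with −1.31 and −0.73 (mean −1.02 ± 0.41, n = 2, adjusted p = 0.041) and had no value with SeMet. Its score of −1.31 averaged probes that read −0.44 and −2.19, and that of −0.73 came from a single probe.

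ATP1, whose product Atp12 chaperones, had −1.61 on both arrays that measured it (n = 2, adjusted p = 0.00212). Of the stalk and membrane subunits, 4 of 7 were lower, with a median of −0.73. ATP14 (YLR295C), subunit h of the stalk, had the lowest mean of all members, with −2.47, −0.84 and −3.68 (mean −2.33 ± 1.43, adjusted p = 0.0358). Its arrays spread over more than those of any other called member in growth, and its score with 20 µM SeMet was measured on a single array. ATP18 had −0.96, −1.41 and −0.80 (mean −1.06 ± 0.31, adjusted p = 0.0046). ATP7 had 0.01, −1.04 and −1.16 (mean −0.73 ± 0.64, adjusted p = 0.043), and ATP20 (YPR020W) had −0.88, −1.02 and −0.16 (mean −0.68 ± 0.46, adjusted p = 0.0399). ATP4 had a mean of −0.50 ± 0.31 that did not pass the test (adjusted p = 0.0556).

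Side by side, ATP7, ATP11 and ATP18 were called higher with 20 µM SeMet and lower in growth without it. ATP4, the other strain called higher with SeMet, was not called in growth. ATP1, ATP10, ATP20 and ATP23 were lower in growth and not called with SeMet. A high untreated signal lowers the fitness score and raises the growth score, so these scores are not independent of each other.

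In complex III, COR1 (YBL045C) had growth scores of −0.80, −1.02 and −0.82 (mean −0.88 ± 0.12, adjusted p = 0.00609). CYT1 (YOR065W) had −0.40, −0.88 and −0.50 (mean −0.59 ± 0.25, adjusted p = 0.013), and QCR2 had −0.38, −0.68 and −0.54 (mean −0.54 ± 0.15, adjusted p = 0.0149). These are the core subunit mutants and that of the catalytic cytochrome c1, and none of them was called with SeMet. RIP1, the other catalytic subunit encoded in the nucleus, had a mean of 0.59 ± 0.27 on the other side of 0 (adjusted p = 0.0505). QCR10, called lower with SeMet, had a growth mean of −0.13 ± 0.13 (adjusted p = 0.463).

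In complex IV, 4 of 9 assembly factor mutants (44.4%) and 1 of 7 subunit mutants (14.3%) were lower in growth, against 12.7% of all strains. Among the subunits, 1 mutant was higher (14.3%, against 14.2% of all strains). The subunit shares thus lay close to those of all strains. COX17 had −0.41, −1.14 and −1.86 (mean −1.14 ± 0.72, adjusted p = 0.0268). COX18 (YGR062C) had −0.55, −1.11 and −0.82 (mean −0.83 ± 0.28, adjusted p = 0.0109). COX16 (YJL003W) had −0.67, −0.55 and −0.91 (mean −0.71 ± 0.18, adjusted p = 0.0193). All arrays of these 3 mutants were below −0.40. COX14 (YML129C) had −0.64, −0.85 and −0.13 (mean −0.54 ± 0.37, adjusted p = 0.0424), and COX12 had −0.42, −0.81 and −0.74 (mean −0.66 ± 0.21, adjusted p = 0.00955). COX9 (YDL067C), a small subunit, was higher with 0.82, 0.94 and 0.95 (mean 0.90 ± 0.07, adjusted p = 0.00405), and its 4 probes agreed in sign.

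COX12, COX14 and COX17 were therefore lower both with 20 µM SeMet and in growth. The strains of the remaining 5 complex IV genes called lower with SeMet were not called in growth. COX19 had growth scores of −0.14, −0.04 and 0.50 (mean 0.11 ± 0.34, adjusted p = 0.734). COX7 had a growth mean of 0.15 ± 0.05 (adjusted p = 0.323) and COX15 of 0.04 ± 0.64 (adjusted p = 0.918). For COX7, a probe read −0.21, 0.09 and 0.15. The other read 0.60 in experiment 1 and had no value on the other growth arrays, so the small SD is that of an average over unlike probes. CYC1 had −0.19, −0.17 and 0.12 (mean −0.08 ± 0.17, adjusted p = 0.716). The growth scores of COX19, COX15 and CYC1 thus lay on both sides of 0. For CYC1 the mean near 0 averages opposed probes, of which 1 read 0.33, 0.09 and 0.76 and the other −0.72, −0.44 and −0.53, while with 20 µM SeMet both were below 0 on every array. For COX15 the positive value came from a probe that read 1.498 and had no value on the other growth arrays.

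In complex II, SDH3 was higher in growth, with 0.34, 0.72 and 0.24 (mean 0.44 ± 0.26, adjusted p = 0.0345). SDH1 and SDH2 had growth means of −0.01 ± 0.17 and 0.08 ± 0.47.

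Strains of genes with related functions were examined in the same way, with 13.8% lower and 12.5% higher calls over all strains at 20 µM SeMet and 12.7% and 14.2% in growth as the background of each count. The other complex IV factors are translational activators of the mitochondrial COX mRNAs and further assembly factors outside the name rule. With 20 µM SeMet, 10 of 19 were lower and 1 higher, with a median of −0.62. PET494, an activator of Cox3 translation, had −0.97, −0.34 and −3.00 (mean −1.44 ± 1.39, adjusted p = 0.0364). OXA1, which inserts proteins made in the matrix into the inner membrane, was the strain that was higher, with 1.21, 0.83 and 1.16 (mean 1.06 ± 0.21, adjusted p = 0.00542). Of the other complex IV factors, 6 of 21 were lower in growth and 0 higher, with a median of −0.35.

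The other complex III and cytochrome c factors had a median of −0.27, and 3 of 12 were lower (25%, against 13.8% of all strains) and 0 higher. Among them were CYC3, the enzyme that attaches heme to cytochrome c, with a mean of −1.30 ± 0.57 (adjusted p = 0.00638), and CYC2, which assists that step, with −1.05 ± 0.31 (adjusted p = 0.00164). Beside them, the mean of CYC1 was −0.95. HAP2 to HAP5 encode the activator complex of respiratory genes, and 2 of the 3 strains tested were lower, HAP3 with −0.76 ± 0.58 and HAP5 with −0.68 ± 0.32 (adjusted p = 0.0262 and 0.0107). Of the complex III and cytochrome c factors, 6 of 11 were lower in growth and 0 higher, with a median of −0.65. Of the HAP strains, 1 of 3 was lower and 0 higher, with a median of −0.53.

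The other ATP synthase proteins, which include activators of its mitochondrial mRNAs and regulators of the enzyme, had a median below 0 with 20 µM SeMet. Of 9 strains, 0 were lower and 0 higher by limma (1 and 1 at an unadjusted p under 0.05), and the median was −0.23, beside 0.55 for the ATP synthase members. The list was mixed, with 6 means below 0, down to −0.54, and 3 above it. The strains above 0, singled out after their values were seen, were FMC1 (0.48), AEP1 (0.19) and AEP2 (0.18). In growth 5 of these 9 were lower, with a median of −0.74. Mutants in mitochondrial DNA maintenance and transcription had positive means in 7 of 7 strains with 20 µM SeMet, against 1826 of 4536 over all strains. Their median was 0.30, although 1 was called, MGM101 (mean 0.52 ± 0.19, adjusted p = 0.0291). MTF1, singled out after its values were seen, had −0.98 and 1.05 in experiments 1 and 2 (adjusted p = 0.971) and thus no direction. In growth, 6 of the 7 strains of this list were lower, with a median of −1.26.

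Of 54 mitochondrial ribosomal protein strains, 3 were lower (5.56%) and 13 higher (24.1%) with 20 µM SeMet (median 0.31), and in growth 24 of 57 were lower and 2 higher (median −0.50). RSM22 and MRPL51 were among the lower ones, with −1.40 ± 0.46 and −1.19 ± 0.26 (adjusted p = 0.0168 and 0.00571). The coenzyme Q list had 1 lower and 1 higher of 7 at 20 µM (14.3% each, close to the 13.8% and 12.5% of all strains), COQ3 with −0.93 ± 0.06 and COQ6 with 0.71 ± 0.40 (adjusted p = 0.0129 and 0.0368). For growth, 6 of 9 coenzyme Q strains were lower (66.7%) and 0 higher, with a median of −0.56.

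The dehydrogenases that feed electrons to coenzyme Q had 0 lower and 1 higher of 6 (16.7%, against 12.5% of all strains), with a median of −0.03. The higher strain was NDE1, the external NADH dehydrogenase, with 2.28, 2.48 and 4.06 (mean 2.94 ± 0.98, adjusted p = 0.000507), a larger score than that of any respiratory chain or ATP synthase member. In the TCA cycle without complex II, 0 of 11 strains were lower and 0 higher, with a median of 0.06.

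**Figure D5:**
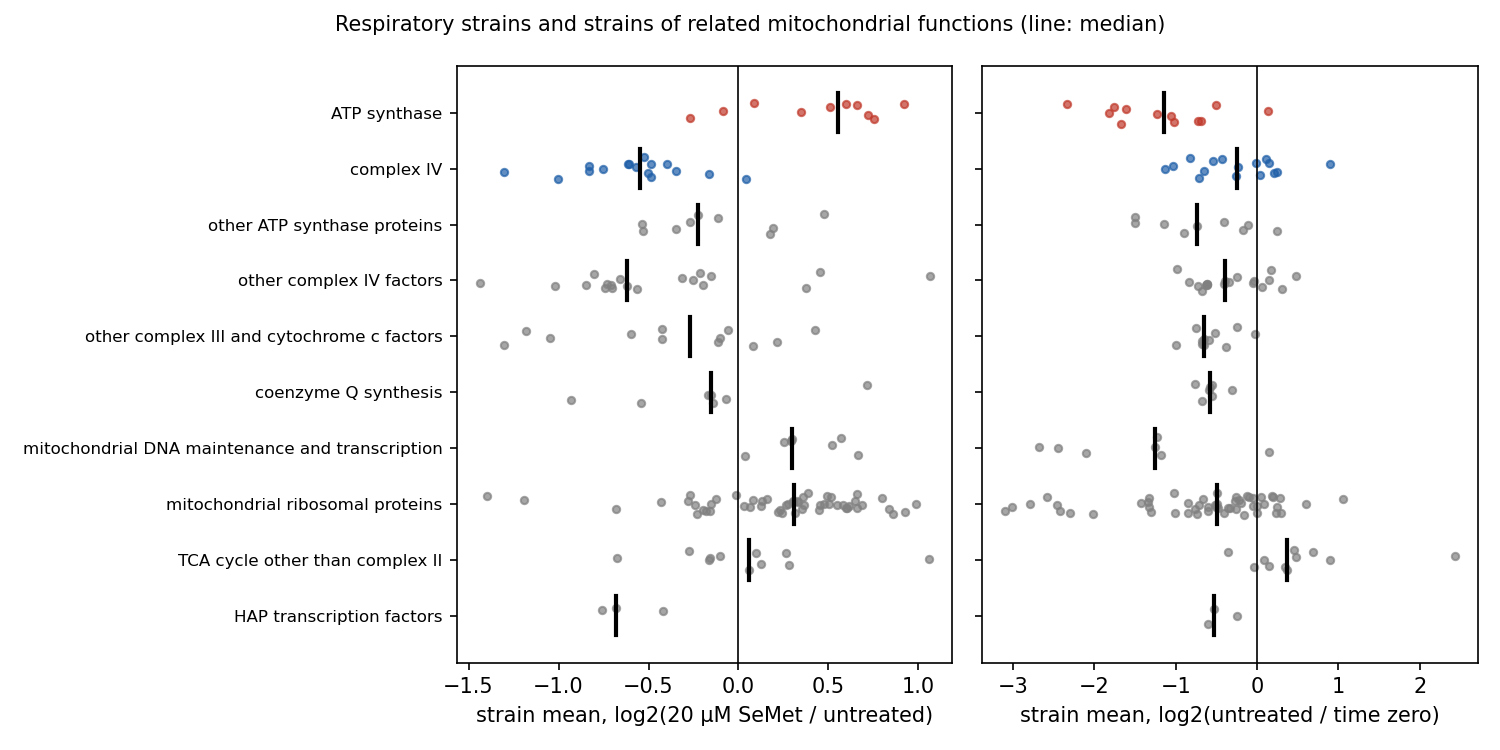
Strain means with 20 µM SeMet over untreated (left) and in growth over time zero (right), as log2 ratios, for the ATP synthase and complex IV members and for 8 lists of related mitochondrial genes, each dot being a strain and each black line a median. The other complex IV factors have a median of −0.62 beside −0.55 for the complex IV members. The other ATP synthase proteins have −0.23 beside 0.55 for the ATP synthase members, with 6 means below 0 and 3 above it.

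The agreement of probes and the position of the genes were examined for the called members. With 20 µM SeMet, 9 of the 15 called members had several probes, and the means of these probes over the arrays agreed in sign, while 6 rested on 1 probe. In growth these numbers were 13 and 6 of 19. On single arrays the signs could still differ. In experiment 2 at 20 µM a probe of ATP4 read −0.23 and the others 1.23 and 0.81, and those of QCR10 read 0.06 and −0.38. Agreement in sign can also hide unlike values, as in COX12 and, in growth, in ATP10 and ATP12. The widest disagreement between probes in growth was that of QCR6 and ATP17, which were not called and were singled out after their values were seen. QCR6, the acidic subunit of complex III, had a growth mean of 1.43 ± 1.17 (adjusted p = 0.0786) from probes with means of −0.42 and 2.23. ATP17, subunit f of the ATP synthase, had growth scores of 1.16, −0.48 and −0.28, and in experiment 1 a pair of its probes read 2.67 and 2.65 while the others read −0.25 and −0.43.

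A deletion can also affect the gene next to it. No member overlapped an annotated gene in the RefSeq annotation. Reading frames known to overlap ATP1, ATP14 and COX20 are not in that annotation, so such overlaps were not examined. Among the 11 lower strains, 3 (27.3%) had a direct neighbour whose strain was lower too, against 176 of the 626 lower strains placed on the annotation (28.1%). These were CYC1 beside UTR1 (mean −2.48), COX14 beside MSC1 (−1.14) and COX7 beside PET111 (−0.73). Among the 4 higher strains, 2 had a higher neighbour, against 20.3% of all higher strains, namely ATP4 beside RPL21B (3.23) and ATP18 beside YML082W (1.69). The part of the neighbours in these scores was not tested.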

How the data were processed

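The values are log2 ratios per probe that the authors deposited for 8 two-colour arrays. Barcodes amplified from genomic DNA had been hybridized to custom Agilent slides, scanned and read with GenePix Pro and normalized by the authors with R scripts, whose method and background correction are not given in the sources used here. An undescribed normalization can shift or rescale every score of an array.

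Of 15744 probes, 13084 carried 1 gene symbol and 2660 carried none and were left out. Probes of a gene were averaged on each array. Means of the groups (20 µM, 12 µM, growth) and the difference of 20 minus 12 µM were tested with limma 3.58.1 in R 4.3.3, two-sided, over all 8 arrays as 3 groups, for strains measured on 2 or more arrays per group tested, with Benjamini-Hochberg adjustment over all strains tested. Calls have an adjusted p under 0.05. The steps were tested on simulated data. The labels call the arrays biological replicates, and their number limits the precision. Tables and plots were made in Python 3.11.15 with pandas 2.3.3, numpy 2.4.6 and matplotlib 3.10.9. The RefSeq annotation (R64) served for locus tags, chromosomes and neighbours, and all 50 members were matched.

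Members and lists were chosen with earlier results of these data known. Array values are given for called members (up to the 4 lowest and 4 highest per class and comparison), for the extremes of each class at 20 µM and for isoform pairs, and of each list up to 2 called genes are named. Strains singled out after their values were seen come in addition. Alternatives were the median of probes, centred or scaled arrays, robust eBayes, a value on every array, at least 2 probes, each group alone, each array left out, and a replicate block.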

Additional observations from a re-analysis of the deposited data

Results flagged for a closer look

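ATP7 had scores of 0.75, 0.97 and 1.04 with 20 µM SeMet, against −0.09 and −0.48 with 12 µM SeMet. Every array at 20 µM lay above 0 and both arrays at 12 µM lay below it, which singled this strain out among the members. The difference of the means, 1.20, did not pass limma after adjustment over all strains (adjusted p = 0.176). The strain was measured by 1 probe.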

How the results depend on the processing

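The number of lower members at 20 µM SeMet (11) was 5 with centred arrays, 6 with the arrays of that dose alone and 3 to 10 when an array was left out. The number of higher members (4) was 2 with at least 2 probes, 1 with the arrays of that dose alone and 0 to 5 when an array was left out, and it was 0 without experiment 2 and without experiment 3. Lower complex IV strains (8) numbered 4 with centred arrays, 5 with that dose alone and 2 to 7 when an array was left out. Higher ATP synthase strains (4) numbered 2 with at least 2 probes, 1 with that dose alone and 0 to 5 when an array was left out. At 12 µM, scaling to the same spread gave 3 lower members against 0.

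Lower members in growth (17) were 11 with at least 2 probes and 6 to 12 when an array was left out, lower ATP synthase strains (9) were 5 with the replicate block and 5 to 6 when an array was left out, and higher members (2) were 1 with centred arrays, 1 with growth arrays alone and 1 to 2 when an array was left out. Some settings held fewer strains or arrays, and the cause of these changes was not tested.

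The median of complex II was 0.11 at 20 µM and 0.083 at 12 µM with at least 2 probes, where it rests on SDH3, and −0.54 to −0.16 at 20 µM when an array was left out. In growth it was −0.0019 with centred arrays and −0.06 to 0.26 when an array was left out. That of complex III at 20 µM (−0.04) was 0.050 with centred arrays, −0.011 with scaled arrays and −0.16 to 0.13 when an array was left out, so it has no direction, and in growth it was −0.61 to −0.22 when an array was left out. That of complex IV at 20 µM lay between −0.80 and −0.50 when an array was left out. At 12 µM it was −0.41 with scaled arrays, −0.36 with at least 2 probes, −0.40 with the replicate block and −0.35 to −0.34 when an array was left out. In growth it was −0.095 with at least 2 probes and −0.35 to 0.00 when an array was left out, turning to just above 0 (0.0045) without experiment 2. The ATP synthase median at 12 µM was 0.17 with at least 2 probes and 0.081 to 0.19 when an array was left out. In growth it was −1.22 with the median of probes, −1.24 with centred arrays, −1.06 with a value on every array, −1.23 with at least 2 probes, −1.06 with the replicate block and −1.20 to −0.88 when an array was left out.

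COX12, COX19 and CYC1 kept their calls at 20 µM in all 11 alternatives, and no called strain turned its direction. Without experiment 3 at 20 µM, 12 of 15 calls were lost, and without growth experiment 2, 10 of 17. Residuals of same-numbered arrays correlated between −0.27 and 0.16 (at 12 µM both arrays are mirror images by construction), too low to use the numbers as a pairing. Cultures of an experiment may still share a pregrown pool, so this does not show that the arrays are unpaired. With the replicate block, 9 members were lower and 3 higher at 20 µM, 0 and 0 at 12 µM, and 12 lower and 3 higher in growth.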
